A study of Mus musculus with 6 samples.

Results

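The 39 genes described here encode proteins of the mitotic spindle and of chromosome segregation, together with the cyclins, kinases and chromosome proteins that cells make in the G2 and M phases of the cell cycle. They were chosen by name, as textbook genes of these phases, with earlier results of these data known. Every probe set annotated to their symbols was read on all 6 arrays of the series. The arrays measured 18193 genes by probe sets with a single symbol, and 11373 of these passed the intensity filter, including 39 of the 39 mitotic genes. RNA came from primary embryonic fibroblasts of mice with a deletion of exon 2 of Cas (p130Cas, gene symbol Bcar1), a docking protein of cell adhesions whose exon 2 carries the SH3 domain. The 3 genotypes had 2 embryos and 2 arrays each. They were Cas exon 2+/+ (wild type), Cas exon 2+/∆ (heterozygous) and Cas exon 2∆/∆ (homozygous), and the design set the homozygous cells against the other 2 genotypes.

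All embryos were taken at 12.5 dpc from intercrosses of heterozygous mice, so the 3 genotypes shared their age and type of cross. The strain was labelled B6 for every array except wild type 1, where no strain was labelled. Heads and inner organs went into genotyping, and the fibroblasts grew out of the rest of the embryo in DMEM with 10% fetal calf serum, penicillin and streptomycin. Such cultures are mixtures rather than a clone, and their passage number, density and the day of harvest are unknown here. Labelled RNA was made from 2 µg of total RNA for each array. Replicates were cultures of separate embryos, so the p-values reflect how far embryos and cultures of a genotype varied.

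Entry into mitosis is driven by cyclin-dependent kinase 1 with its A and B cyclins, and by the Polo and Aurora kinases. Kinetochores built on the centromeres then attach chromosomes to spindle microtubules, a checkpoint holds the anaphase-promoting complex inactive until all are attached, and separase finally cuts the cohesin that joins sister chromatids. The genes for these proteins are transcribed mainly in late S, G2 and M phase and are repressed in resting cells, so in a culture their RNA is commonly read as a measure of cycling cells. On bulk arrays, fewer cycling cells and less RNA per cycling cell cannot be told apart.

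The arrays were similar in brightness, with median deposited intensities from 21.9 on homozygous 2 to 27.3 on heterozygous 2. Bcar1 itself lay at log2 intensities of 9.37 and 8.42 in wild type, 8.19 and 8.32 in the heterozygotes and 8.08 and 8.43 in the homozygotes. Which exon its probe set matches is unknown here, so these values do not check the genotype labels. Fibroblast markers (14 of 14 past the filter, collagens and Vim among them) had summed deposited intensities from 80704 on wild type 1 to 105870 on heterozygous 2. This sum is weighted to the brightest genes. Relative to each gene's mean over the 6 arrays, the median log2 level of the list was -0.47 on wild type 1. It lay between -0.02 and 0.20 on the other arrays. On wild type 1, 3 of the 14 genes were above their mean, and Lum was at 7.39 against 9.91 to 12.32 elsewhere. The embryos were of mixed sex by their expression. Xist, the RNA of the inactive X chromosome, was at 8.82, 10.27 and 10.29 on wild type 1, heterozygous 1 and heterozygous 2, and at 4.23, 3.70 and 5.31 on wild type 2, homozygous 1 and homozygous 2, and the Y-linked gene Eif2s3y ran the opposite way.

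Promoters of mitotic genes commonly carry a CCAAT box, which NF-Y binds, upstream of a cell cycle homology region (CHR) close to the transcription start, where the MuvB complexes of resting and of dividing cells bind. RefSeq promoter windows of 300 bases (250 before to 50 after the start, assembly GRCm38.p6) matched 33 of the 39 genes by symbol and gave 35 windows, since Ect2 and Prc1 each had 2 overlapping ones. The strings searched were CCAAT or its reverse complement ATTGG, and, for the CHR, TTTGAA, its reverse complement TTCAAA, or TTCGAA, which is its own reverse complement. A match of one motif may overlap a match of the other. The 150 bases before the start are printed for 5 genes whose array values recur in the results, because they show both motifs side by side. They are read 5′ to 3′ on the gene's strand, with matches in capitals. In mouse GRCm38.p6 they lie at chr10:69352913-69353062 (minus strand), chr11:99024190-99024339 (minus strand), chr7:135716380-135716529 (minus strand), chr4:118437344-118437493 (minus strand) and chr2:164769779-164769928 (plus strand).
Cdk1: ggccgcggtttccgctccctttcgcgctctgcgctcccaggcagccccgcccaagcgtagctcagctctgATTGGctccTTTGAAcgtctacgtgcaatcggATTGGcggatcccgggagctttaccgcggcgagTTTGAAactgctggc
Top2a: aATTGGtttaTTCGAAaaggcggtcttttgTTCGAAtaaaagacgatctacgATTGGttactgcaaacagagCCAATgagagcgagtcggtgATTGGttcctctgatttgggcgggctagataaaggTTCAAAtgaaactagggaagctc
Mki67: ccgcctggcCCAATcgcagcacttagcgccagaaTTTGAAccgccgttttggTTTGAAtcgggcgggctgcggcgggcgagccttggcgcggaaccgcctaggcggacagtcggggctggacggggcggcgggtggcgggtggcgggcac
Cdc20: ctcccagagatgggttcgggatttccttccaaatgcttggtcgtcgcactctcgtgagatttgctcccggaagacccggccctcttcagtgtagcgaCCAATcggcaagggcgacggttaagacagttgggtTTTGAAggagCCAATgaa
Ube2c: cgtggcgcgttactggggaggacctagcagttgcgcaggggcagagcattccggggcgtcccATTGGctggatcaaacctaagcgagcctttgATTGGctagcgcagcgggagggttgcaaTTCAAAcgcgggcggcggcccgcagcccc

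In these stretches, Cdk1 had 2 CCAAT and 2 CHR matches, Top2a 4 and 3, Mki67 1 and 2, and Cdc20 and Ube2c 2 and 1 each. The stretches end at the start, and many CHR matches of other mitotic genes, such as those of Plk1 and Aurka, lay after it. The CHR matches of Mki67 were centred at -113.5 and -95.5 bases, so its window had none within 50 bases of the start. Of the 35 windows, 28 (80%) held a CCAAT match, against 37.4% of all 32851 windows in the table. A CHR match centred within 50 bases of the start stood in 27 windows (77.1%), against 5.42% of all windows. Both a CCAAT match and such a CHR match were found in 25 windows (71.4%), against 2.3%. The 69 windows of the listed further mitotic genes lay between, with a CCAAT match in 66.7%, a CHR match near the start in 44.9% and both in 30.4%. The listed DNA replication genes, which are expressed earlier in the cycle, had a CCAAT match in 18 of 30 windows (60%) and a CHR match near the start in 0 of 30. Of the mitotic genes, Birc5, Nuf2, Mad2l1 and Nusap1 had a match to neither motif in their window, which says only that these letters are not in that stretch. A match is a string of letters, and binding was not measured.

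**Figure D1:**
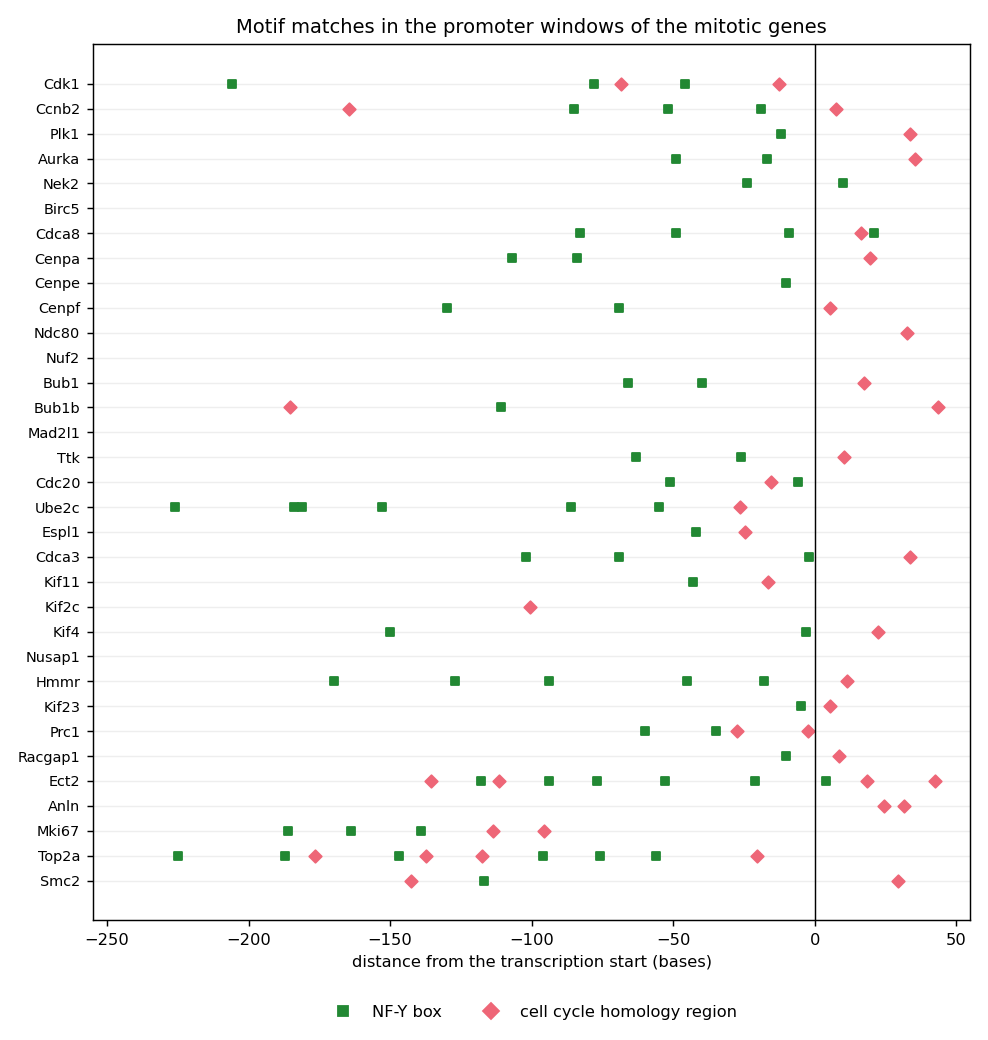
Matches to the NF-Y box (squares) and to the cell cycle homology region (diamonds) in the promoter windows of the 33 matched mitotic genes, by distance of the match centre from the transcription start in bases. Ect2 and Prc1 each combine 2 overlapping windows. Most diamonds lie within 50 bases of the start (27 of 35 windows), and squares lie mainly upstream of it.

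No mitotic gene passed the threshold in any genotype comparison, and the widest gap within the set lay between the homozygous embryos. On the log2 scale, relative to each gene's mean over the 6 arrays, the median level of the 39 genes was 0.60 on homozygous 1 and -0.35 on homozygous 2. It was 0.09 and -0.30 on the wild-type arrays and -0.11 and 0.16 on the heterozygous arrays. The median of all genes tested stayed between -0.04 and 0.04 on every array. Homozygous 1 was above the mean for 39 of 39 genes, while homozygous 2 was above it for 1, wild type 2 for 2, heterozygous 1 for 9, wild type 1 for 25 and heterozygous 2 for 29. By the median, homozygous 1 was at the top of the series and homozygous 2 at the bottom, close to wild type 2. By summed deposited intensity, wild type 2 was the lowest array, at 7530 against 7694 on homozygous 2.

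**Figure D2:**
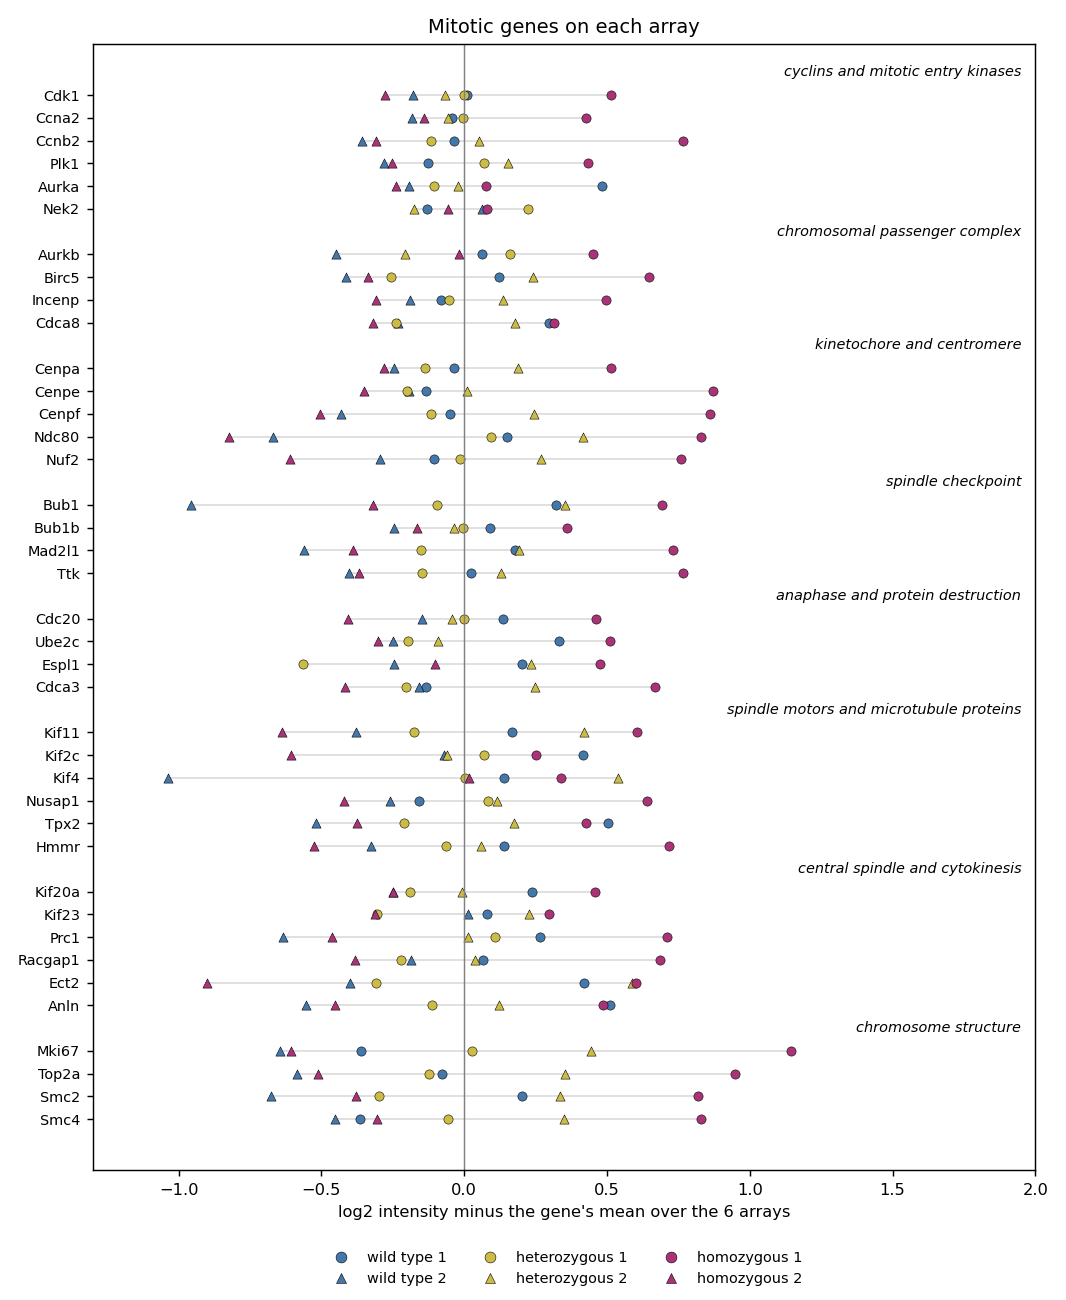
Log2 intensity of each of the 39 genes minus its own mean over the 6 arrays, grouped by role. Colours mark the genotype and shapes the embryo number. Homozygous 1 is the rightmost point for 33 genes, and homozygous 2 or wild type 2 is the leftmost point for 37 genes.

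Homozygous 1 exceeded homozygous 2 for 39 of 39 genes, whereas 44.9% of all genes tested did so. The median of this difference was 0.98 log2 units, a 1.98-fold ratio, and it ranged from 0.14 for Nek2 to 1.75 for Mki67, with 19 genes over 1 unit. Homozygous 1 was the highest of the 6 arrays for 33 of the 39 genes (17.9% of all genes), homozygous 2 the lowest for 20 (9.03%) and wild type 2 the lowest for 17 (12.2%). The wild-type embryos also differed in 1 direction, with wild type 1 above wild type 2 for 38 of 39 genes (45.8% of all genes) and a median difference of 0.45. The heterozygous embryos were closest, with heterozygous 1 above heterozygous 2 for 8 of 39 genes (52.1% of all genes) and a median difference of -0.27. In absolute size the median difference between embryos of a genotype was 0.98 in the homozygotes, 0.45 in wild type and 0.32 in the heterozygotes, against 0.32, 0.32 and 0.27 over all genes.

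Among the cyclins and entry kinases, Cdk1, the kinase at the centre of mitotic entry, lay at 9.39 and 9.20 in wild type, 9.37 and 9.31 in the heterozygotes and 9.89 and 9.10 in the homozygotes. Ccnb2, a B-type cyclin partner of Cdk1, lay at 8.24 and 7.92, 8.16 and 8.33, and 9.04 and 7.97 in the same order of genotypes and embryos. For both, homozygous 1 stood above all other arrays and homozygous 2 lay among or below the wild-type values. Cyclin A2 (Ccna2), which acts from S phase into early mitosis, and the Polo kinase Plk1 had homozygous embryos 0.57 and 0.69 apart. A second, nearly as bright probe set of Ccna2 gave 1.48 in place of 0.57. Aurora kinase A (Aurka), which acts at the spindle poles, departed from this order. Its highest array was wild type 1, at 8.40, with wild type 2 at 7.73, the heterozygotes at 7.81 and 7.90 and the homozygotes at 7.99 and 7.68. Nek2, a kinase of centrosome separation, spanned only 6.46 to 6.86 over the 6 arrays on its brightest probe set and had the smallest difference between the homozygotes. A dimmer probe set of Nek2 ran wider, from 5.058 on wild type 2 to 6.455 on wild type 1, with the homozygotes at 5.88 and 5.68. The median difference between the homozygous embryos in this group was 0.63.

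The chromosomal passenger complex, which corrects faulty attachments and then directs cytokinesis, had homozygous embryos a median of 0.72 apart. Its scaffold Incenp lay at 8.81 and 8.70 in wild type, 8.84 and 9.03 in the heterozygotes and 9.39 and 8.58 in the homozygotes. Survivin (Birc5) lay at 8.30 and 7.77, 7.93 and 8.42, and 8.83 and 7.85. Homozygous 1 was the highest array for both genes, and for the kinase Aurkb and borealin (Cdca8), whose homozygous embryos differed by 0.47 and 0.63.

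Kinetochore and centromere genes were among the most divided between the homozygous embryos, with a median difference of 1.37 and homozygous 1 highest and homozygous 2 lowest for 5 of 5 genes. Cenpa, the histone H3 variant of centromeres, lay at 7.82 and 7.61 in wild type, 7.72 and 8.04 in the heterozygotes and 8.37 and 7.57 in the homozygotes. Ndc80, which binds microtubules, lay at 6.38 and 5.56, 6.32 and 6.64, and 7.05 and 5.40, so that homozygous 1 was 3.15-fold homozygous 2. Its partner Nuf2 and the outer kinetochore protein Cenpf differed by 1.37 and 1.37 between the homozygotes. The kinetochore motor Cenpe lay at 6.50 and 6.43, 6.43 and 6.64, and 7.50 and 6.28, with 5 arrays close together and homozygous 1 alone above them.

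The 4 spindle checkpoint genes had homozygous embryos a median of 1.07 apart, with homozygous 1 highest for 4 of 4. Mad2l1, the checkpoint protein that binds Cdc20, lay at 8.68 and 7.94 in wild type, 8.35 and 8.69 in the heterozygotes and 9.23 and 8.11 in the homozygotes. The kinase Bub1 lay at 7.76 and 6.48, 7.34 and 7.79, and 8.13 and 7.12, and its wild-type embryos were further apart than its homozygous ones. The checkpoint kinase Ttk and BubR1 (Bub1b) differed by 1.13 and 0.53 between the homozygotes.

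Genes of anaphase and protein destruction had a median difference of 0.84 between the homozygous embryos. Cdc20, the activator of the anaphase-promoting complex, lay at 10.19 and 9.91 in wild type, 10.05 and 10.01 in the heterozygotes and 10.51 and 9.65 in the homozygotes. Ube2c, the ubiquitin-conjugating enzyme of that complex, lay at 9.42 and 8.83, 8.89 and 8.99, and 9.59 and 8.78. For both genes the homozygous embryos were the extremes of the 6 arrays and the heterozygous embryos nearly coincided. Separase (Espl1) was lowest on heterozygous 1, at 5.17, and had homozygous values of 6.21 and 5.63. Cdca3, a substrate adaptor for degradation at mitotic entry, differed by 1.09 between the homozygotes.

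Among spindle motors and microtubule proteins the homozygous embryos were a median of 0.96 apart, and the order of the other arrays varied. Tpx2, which activates Aurora kinase A on the spindle, lay at 8.56 and 7.54 in wild type, 7.84 and 8.23 in the heterozygotes and 8.48 and 7.68 in the homozygotes, with wild type 1 highest. Kif2c, a microtubule-depolymerising kinesin, lay at 7.90 and 7.41, 7.55 and 7.42, and 7.73 and 6.87, likewise with wild type 1 highest and homozygous 2 lowest. For both genes this order belonged to the brightest probe set. The next brightest was highest on homozygous 1, at 6.83 for Tpx2 and 6.97 for Kif2c, and wild type 1 lay at 6.24 and 6.80. Still dimmer probe sets past the filter differed in their highest array. Kif4, a chromosome-bound kinesin, lay at 6.55 and 5.38, 6.42 and 6.95, and 6.75 and 6.43, with wild type 2 below the other 5 arrays. The bipolar spindle motor Kif11 and the microtubule binders Nusap1 and Hmmr had homozygous 1 above homozygous 2 by 1.24, 1.06 and 1.25, and homozygous 1 was the highest array for each.

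Central spindle and cytokinesis genes had a median difference of 1.00 between the homozygous embryos. Anillin (Anln), a scaffold of the contractile ring, lay at 9.75 and 8.68 in wild type, 9.13 and 9.36 in the heterozygotes and 9.72 and 8.79 in the homozygotes, so wild type 1 and homozygous 1 were nearly equal at the top. Ect2, the exchange factor that activates RhoA at the cleavage site, lay at 7.79 and 6.97, 7.06 and 7.96, and 7.98 and 6.47, with wide gaps inside every genotype. The microtubule bundler Prc1, the Ect2 activator Racgap1, its kinesin partner Kif23 and the kinesin Kif20a differed by 1.17, 1.07, 0.61 and 0.71 between the homozygotes, with homozygous 1 the highest array for all of them. A second, nearly as bright probe set of Prc1 was highest on heterozygous 2, at 7.96. On it, wild type 1 lay at 7.80 and the homozygotes at 7.75 and 7.01.

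Chromosome structure genes shared their order, with homozygous 1 highest and heterozygous 2 next for 4 of 4 genes and a median difference of 1.33 between the homozygotes. Mki67, the Ki-67 protein that coats mitotic chromosomes and is the usual marker of cycling cells, lay at 8.07 and 7.79 in wild type, 8.47 and 8.88 in the heterozygotes and 9.58 and 7.83 in the homozygotes, a 3.37-fold ratio between the homozygous embryos. Topoisomerase II alpha (Top2a), which untangles sister chromatids, lay at 8.89 and 8.38, 8.84 and 9.32, and 9.92 and 8.45. The condensin subunit Smc4 lay at 8.75 and 8.66, 9.06 and 9.46, and 9.94 and 8.81, and its partner Smc2 differed by 1.20 between the homozygotes. Homozygous 2 lay between the wild-type arrays for Mki67, Top2a and Smc2 (7.86 against 8.44 and 7.56 for Smc2) and above both for Smc4.

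The design's own question, homozygous cells against the mean of the other 2 genotypes, gave 0 of 39 mitotic genes past the threshold (limma adjusted p = 1 for each), and 0% of all 22519 probe sets tested were called. At an unadjusted limma p under 0.05, 0 of 39 mitotic genes passed, against 249 of all 11373 genes tested and 2.49% of all probe sets. The sign was higher in homozygotes for 33 of 39 genes, with a median difference of 0.17, against 47.4% of all genes and a median of -0.01. The largest differences were 0.40 (SE 0.48) for Mki67, 0.39 (SE 0.35) for Smc4 and 0.39 (SE 0.35) for Cenpe, and the lowest were -0.27 (SE 0.30) for Kif2c, -0.22 (SE 0.50) for Ect2 and -0.12 (SE 0.25) for Aurka. Top2a was at 0.33 (SE 0.43), Ccnb2 at 0.34 (SE 0.33), Kif4 at 0.27 (SE 0.37) and Cdk1 at 0.18 (SE 0.27). None had both homozygous arrays above the other 4 (3.16% of all genes did) or below them (3.61%). The homozygous embryos differed from each other by more than homozygotes differed from the other genotypes for 39 of 39 genes, as for 75.7% of all genes.

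The direction rested on which homozygous embryo was kept. Without homozygous 1 the median was -0.28 and 2 of 39 genes were on the higher side. Without homozygous 2 it was 0.59, with 39 of 39 higher. Without homozygous 1 the differences of Mki67, Top2a, Cdk1, Ccnb2, Smc4 and Cenpe were -0.48, -0.41, -0.22, -0.19, -0.18 and -0.23. Without homozygous 2 the differences of Kif2c, Ect2 and Aurka were 0.16, 0.53 and 0.03. Aurka was also at 0.05 without wild type 1, Ect2 at 0.001 without heterozygous 2, and Kif4 at -0.03 without wild type 2. With a single homozygous array left, that array was assumed to vary like the other genotypes, and 0 mitotic genes were called in either case. The median was 0.07 without wild type 2, with 26 of 39 genes higher.

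**Figure D3:**
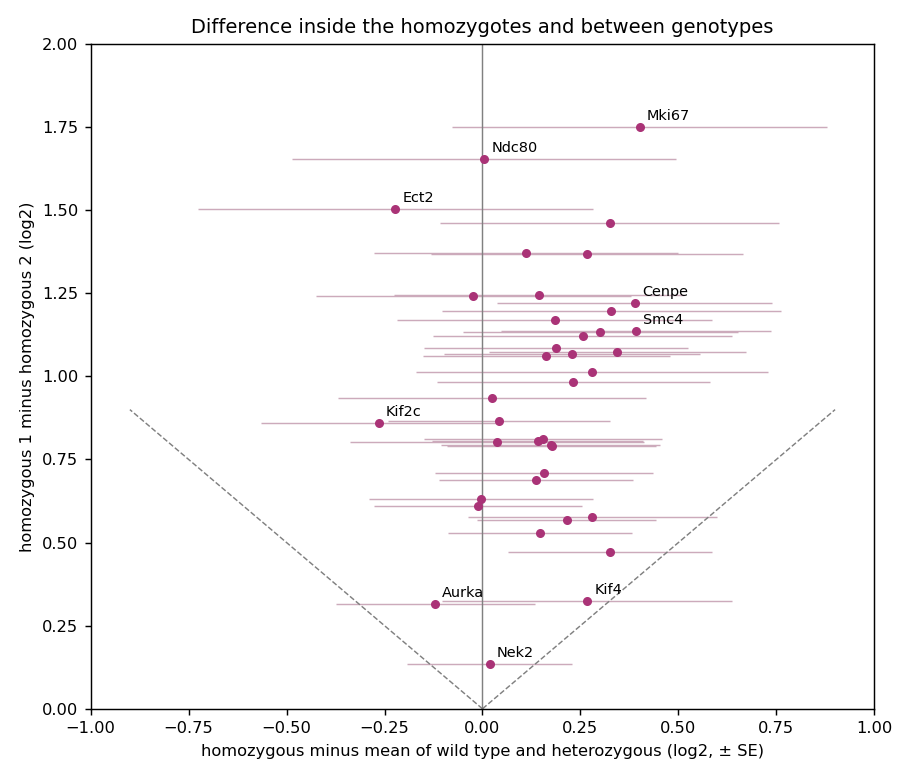
Each point is 1 of the 39 genes, with the homozygous minus the mean of the wild-type and heterozygous means on the x axis (log2, bars ± SE from limma) and homozygous 1 minus homozygous 2 on the y axis (log2). Dashed lines mark equal size on both axes, and all points lie above them.

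Against wild type alone, the homozygotes had 0 of 39 mitotic genes called (limma adjusted p of 0.973 at the lowest, 0% of all probe sets called). At an unadjusted limma p under 0.05, 0 passed, against 373 of all 11373 genes and 3.8% of all probe sets. The median difference was 0.26, with 34 of 39 genes on the higher side. Mki67 and Smc4 had the largest differences, 0.77 (SE 0.55) and 0.67 (SE 0.40), and Kif2c and Aurka the lowest, -0.35 (SE 0.35) and -0.23 (SE 0.29). Smc4 alone had both homozygous arrays above both wild-type arrays, 1 gene of 39 where 12.5% of all genes did so, and 0 had both below (14.3%). The median was -0.20 without homozygous 1, 0.74 without homozygous 2 and 0.04 without wild type 2.

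Against the heterozygotes, the homozygotes had 0 of 39 genes called (limma adjusted p = 1, 0% of all probe sets called). At an unadjusted limma p under 0.05, 0 passed, against 221 of all 11373 genes and 2.17% of all probe sets. Separated arrays were found for 0 in the higher (10.5% of all genes) or lower (12.4%) direction. The median was 0.09, with Cenpe highest at 0.35 (SE 0.41) and Ect2 lowest at -0.29 (SE 0.58). It was -0.36 without homozygous 1, -0.06 without heterozygous 1, 0.56 without homozygous 2, and -0.045 with the deposited values left unscaled.

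The heterozygotes against wild type gave 0 of 39 genes called (limma adjusted p of 0.838 at the lowest, 0% of all probe sets called). At an unadjusted limma p under 0.05, 0 passed, against 492 of all 11373 genes and 5.26% of all probe sets. The median was 0.17, with 29 of 39 on the higher side, Mki67 at 0.74 (SE 0.55), Kif4 at 0.72 (SE 0.43) and Aurka lowest at -0.21 (SE 0.29). Plk1, Incenp, Nuf2, Nusap1, Mki67 and Smc4 had both heterozygous arrays above both wild-type arrays, 6 of 39 genes where 17.6% of all genes were so placed, and 0 were separated downward (18.4%). The median was -0.08 without wild type 2, 0.36 without wild type 1, 0.04 without heterozygous 2 and -0.08 with a covariate for embryo sex. A limma F-test over the 3 genotypes called 0 of 39 genes (0% of all probe sets), and 0 were at an unadjusted p under 0.05 (3.29% of all probe sets).

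The set was read by 91 probe sets, of which 68 passed the filter, and the values above are those of the brightest probe set of each gene. Homozygous 1 exceeded homozygous 2 on 64 of the 68, with a median of 0.91. Of 19 genes with several probe sets past the filter, 16 had the same sign of this difference on each, and Cdc20, Kif2c and Tpx2 did not, with ranges of -0.17 to 0.87, -0.10 to 0.86 and -0.41 to 0.80. In the comparison of homozygotes with both other genotypes, 11 of the 19 had 1 sign on all probe sets. Kif2c ranged from -0.27 to 0.26 and Prc1 from -0.27 to 0.19, while Top2a ranged from 0.27 to 0.33 and Smc4 from 0.39 to 0.57.

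Other genes of the cell cycle were read from lists made beside the 39. Of 66 further mitotic genes past the filter, 56 were higher on homozygous 1 than on homozygous 2, with a median difference of 0.74 and array levels of 0.48 and -0.30. In the comparison of homozygotes with both other genotypes, 0 of 66 were called (limma adjusted p = 1) and 44 were on the higher side, with a median of 0.11. Those with the smallest unadjusted p were Oip5, which loads Cenpa, at -0.80 (SE 0.27), the centromere protein Cenpn at -0.49 (SE 0.19), the minus-end motor Kifc1 at 0.45 (SE 0.21) and the checkpoint protein Mad1l1 at -0.50 (SE 0.27). Cenpn and Kifc1 differed mainly from the heterozygotes, at -0.855 and 0.796, and were at -0.125 and 0.112 against wild type. Oip5 and Mad1l1 were at -0.747 and -0.262 against the heterozygotes and at -0.848 and -0.732 against wild type. Cenpn lay at 6.63 and 6.67 in the homozygotes and Oip5 at 4.29 and 4.07, so their homozygous embryos were close together, as were those of Nek2 among the 39 genes.

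DNA replication genes followed a like order, with 26 of 28 higher on homozygous 1 than on homozygous 2 and a median difference of 0.58. Homozygotes against both other genotypes gave 0 of 28 called (limma adjusted p = 1), 23 on the higher side and a median of 0.14. Pcna, the sliding clamp of DNA polymerase, lay at 11.09 and 10.96 in wild type, 11.16 and 11.31 in the heterozygotes and 11.96 and 10.97 in the homozygotes. The chromatin assembly subunit Chaf1b, Gins1 of the replicative helicase and the ribonucleotide reductase subunit Rrm1 had homozygous embryos 0.46, 0.68 and 0.56 apart.

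Transcription regulators of the G2 and M genes (NF-Y, MuvB, E2F and pocket protein genes, Foxm1 and Mybl2) went both ways, with list medians from -0.08 to 0.13 on the 6 arrays and single genes from -0.71 to 0.65 around their mean. Of 21 past the filter, 14 were higher on homozygous 1, with a median difference of 0.06, and 0 were called between homozygotes and the other genotypes (limma adjusted p = 1). The smallest unadjusted p were those of E2f5 at -0.34 (SE 0.25), E2f6 at -0.33 (SE 0.28), Rb1 at -0.22 (SE 0.20) and Tfdp2 at -0.20 (SE 0.19). Foxm1, an activator of G2 genes that was picked out after its values were seen, lay at 6.25 and 5.22 in wild type, 5.66 and 6.26 in the heterozygotes and 6.05 and 6.12 in the homozygotes. Its homozygous embryos did not share the gap seen in Mki67 or Top2a.

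Of 13 cell cycle inhibitors, 8 were higher on homozygous 1, with a median difference of 0.29, and 0 were called between homozygotes and the other genotypes (limma adjusted p = 1). Cdkn1a (p21), which inhibits cyclin-dependent kinases downstream of p53, lay at 12.40 and 12.51 in wild type, 12.57 and 12.36 in the heterozygotes and 11.83 and 12.41 in the homozygotes, with homozygous 1 lowest of the 6. Cdkn2a, which encodes p16 and Arf and was picked out after its values were seen, lay at 7.51 and 7.66, 7.80 and 7.30, and 6.54 and 8.09, with homozygous 1 the lowest and homozygous 2 the highest array. Cdkn1c (p57) was at 0.78 (SE 0.27) and the p53 target Ccng1 at -0.17 (SE 0.20) in the homozygotes against both other genotypes. Gas1, which is made in growth-arrested cells, was at 0.82 (SE 1.14) there, and lay at 7.46 on wild type 1 against 11.02 to 12.42 on the other arrays.

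**Figure D4:**
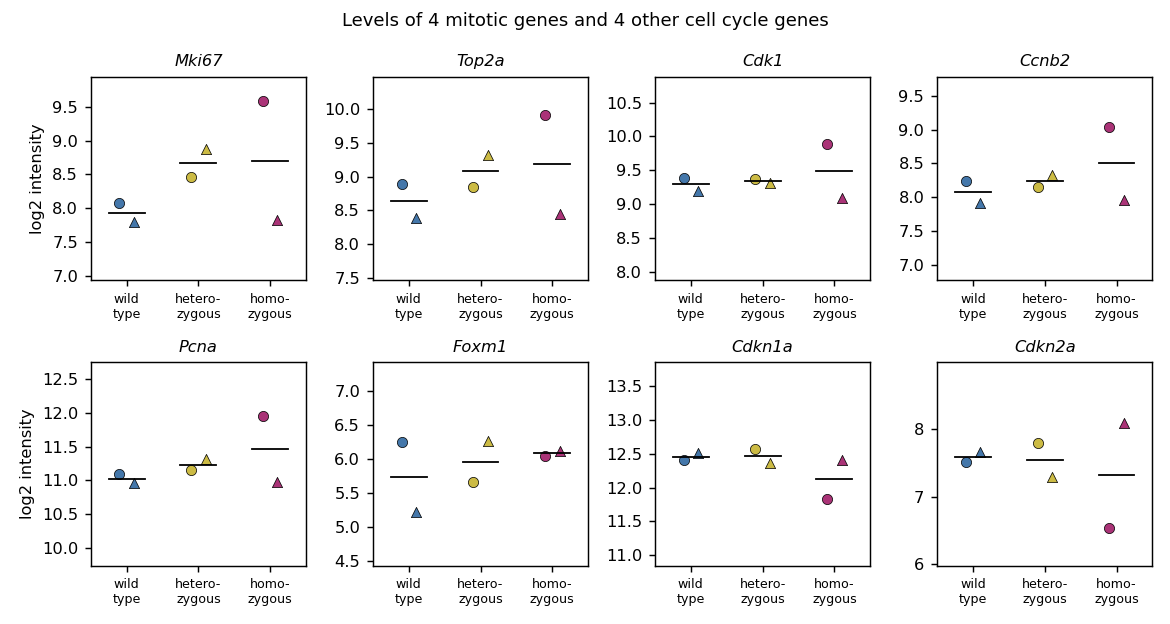
Log2 intensity of Mki67, Top2a, Cdk1, Ccnb2, Pcna, Foxm1, Cdkn1a and Cdkn2a on each array by genotype, with circles for embryo 1, triangles for embryo 2 and lines for the genotype mean (n = 2). Each panel spans 3 log2 units. Homozygous 1 lies above homozygous 2 in the panels of Mki67, Top2a, Cdk1, Ccnb2 and Pcna and below it in those of Cdkn1a and Cdkn2a. These 2 panels do not stand for the cell cycle inhibitors, of which 8 of 13 were higher on homozygous 1.

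Of the marker lists for other cell types, macrophage markers were, like the mitotic genes, at their highest level on homozygous 1. They (17 of 19 past the filter, with Aif1 and Itgam below it) were higher on homozygous 1 than on homozygous 2 for 17 of 17 genes, with a median difference of 0.88. Their summed deposited intensity was 3647 and 7748 in wild type, 6076 and 6277 in the heterozygotes and 17260 and 8330 in the homozygotes. The mitotic genes summed to 11855 and 7530, 9566 and 13106, and 15380 and 7694. Both sums were highest on homozygous 1. The macrophage sum was lowest on wild type 1, and the mitotic sum there stood above those of wild type 2, heterozygous 1 and homozygous 2. Fibroblast markers went both ways between the homozygous embryos, with 8 of 14 higher on homozygous 1, a median difference of 0.08 and a range from -0.83 to 2.35. Endothelial markers (4 of 8 past the filter, Pecam1 and Cdh5 below it) had a median of -0.66, neural and glial markers (4 of 10) of -0.74, skeletal muscle markers (2 of 8) of -2.00 and epithelial markers (4 of 8) of 0.09, and 0 of 7 erythroid markers passed. The neural and glial, skeletal muscle and epithelial lists were highest on wild type 1, with median levels of 1.03, 1.65 and 0.83 there. Endothelial markers were highest on homozygous 2, at 0.63, with wild type 1 at 0.55. The part of macrophage RNA in the mitotic values was not tested.

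**Figure D5:**
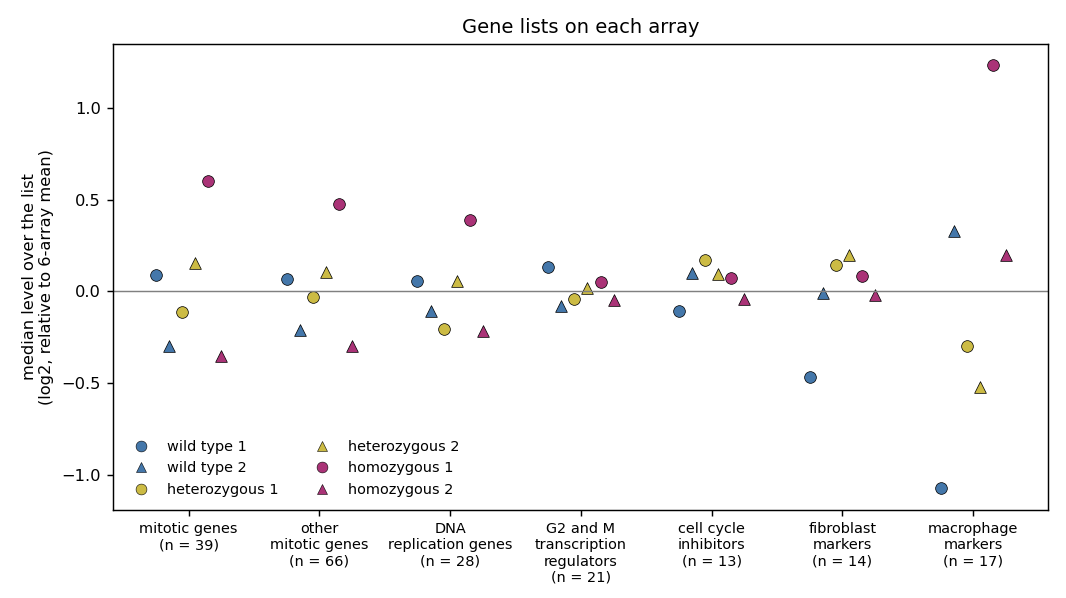
Median over each list of log2 intensity minus the gene's mean over the 6 arrays, for the mitotic genes and 6 other lists (n is the number of genes past the filter). Colours mark genotype and shapes the embryo. The mitotic genes, the further mitotic genes and the replication genes are highest on homozygous 1 and lowest on homozygous 2, and the macrophage markers are highest on homozygous 1 and lowest on wild type 1.

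The 3 arrays with low Xist and high Eif2s3y were wild type 2, homozygous 1 and homozygous 2, where the level of the 39 genes was -0.30, 0.60 and -0.35. Both homozygous embryos were of this kind and both heterozygous embryos of the other, so sex and genotype cannot be told apart between these genotypes. Only the wild-type embryos were of both kinds, so a sex term rested mainly on the difference between wild type 1 and wild type 2. Values fitted with it cannot separate sex from other differences between those embryos. With a covariate for sex, homozygotes against both other genotypes had a median of 0.37, with 37 of 39 genes on the higher side and 0 called (limma adjusted p of 0.978 at the lowest), and Kif2c, Ect2 and Aurka were at 0.02, 0.27 and 0.43. Heterozygotes against wild type had a median of -0.08 with it, with 17 of 39 genes on the higher side.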

How the data were processed

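Total RNA of 6 cultures was hybridised to Affymetrix arrays, per the labels' protocols. The deposited table holds a linear intensity for each of 45101 probe sets. How the authors scanned, summarised and scaled the arrays is not stated in these sources. Every value exceeded 0, so a linear scale was assumed. Symbols came from the platform annotation, with 34945 probe sets carrying 1 symbol, 932 several, 9160 none and 64 being controls, and the brightest probe set with 1 symbol stood for a gene.

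Intensities were converted to log2(intensity + 1.78), the 10th percentile as pseudocount, which understates changes of dim genes. Because array medians spanned 0.29 log2 units, arrays were quantile normalized. The upper 50% of probe sets by mean, 22519 with a mean of 4.57 or more, were fitted with limma 3.58.1 in R 4.3.3 (lmFit, eBayes), with a mean per genotype, 3 residual and 3.28 prior degrees of freedom, and Benjamini-Hochberg adjustment at 0.05. The script was tested on simulated data. Promoter windows were searched in Python 3.11.15.

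The mitotic genes and lists were chosen with earlier results of these data known. Array values are given for the genes with the largest and smallest differences, the brightest of each role and 4 cycling markers. Non-members are the up to 4 of a list with the smallest unadjusted p, except Foxm1 and Cdkn2a, which were picked out after their values were seen. Alternatives were median centring, no scaling (chosen after seeing the data), a pseudocount of 16, no filter or the upper 25%, averaged probe sets, a replicate block, a sex covariate and leaving out each array. The number of arrays limits the precision.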

Additional observations from a re-analysis of the deposited data

How the results depend on the processing

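With 0 mitotic genes called in each comparison and in the F-test, no call was lost or gained under any alternative, and homozygous 1 exceeded homozygous 2 for every mitotic gene past the filter in each setting that kept both arrays. Leaving out single arrays moved the median difference of the 39 genes between -0.28 and 0.59 for homozygotes against both other genotypes, -0.20 and 0.74 against wild type, -0.36 and 0.56 against heterozygotes, and -0.084 and 0.36 for heterozygotes against wild type. Without scaling, homozygotes against heterozygotes were at -0.045, and with the sex covariate heterozygotes against wild type were at -0.079. The level of heterozygous 1 lay between -0.20 and 0.045, the last without homozygous 1. In homozygotes against both other genotypes, leaving out arrays gave ranges of -0.48 to 1.27 for Mki67, -0.41 to 1.05 for Top2a, -0.22 to 0.57 for Cdk1, -0.19 to 0.87 for Ccnb2, -0.18 to 0.96 for Smc4, -0.23 to 1.00 for Cenpe, -0.026 to 0.56 for Kif4, -0.70 to 0.16 for Kif2c, -0.98 to 0.53 for Ect2 and -0.29 to 0.046 for Aurka. With the sex covariate Kif2c was at 0.023, Ect2 at 0.273 and Aurka at 0.426, and with averaged probe sets Aurka was at 0.069. The cause of these shifts was not tested, except that each range follows from the arrays kept. With the replicate block, 0 mitotic genes were called and the median stayed at 0.17. Deviations of same-numbered arrays correlated at -0.36, -0.14 and -0.14 between genotypes. Each genotype gave a single difference between its arrays, so these values cannot show whether same-numbered samples were paired. With 2 arrays per genotype and members of one culture sharing its state, differences of the size seen here between genotypes could not be separated from differences between embryos.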
